A study of Mus musculus with 30 samples.

Results

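Adipose-derived stem cells were profiled for 6 genes of the plasminogen activator system, Plau, Plat, Plaur, Serpine2, Serpinb2 and Serpinf1, taken by gene symbol from the 38561 genes of the count table. The cells came from the inguinal fat of 30 male C57BL6/J mice, with 1 RNA-seq library per mouse, were sorted as Sca-1+, CD34+, CD31-, CD45- and Ter119- and were grown in culture to passage 2 before the RNA was taken. Aged obese mice (6 libraries) were killed at 52 weeks after eating, from weaning on, a lard-based diet that drew 60% of its energy from fat. Aged lean mice (8 libraries) reached the same age on control chow. Young obese mice (8 libraries) had the high-fat diet and were killed at 20 weeks, and young lean mice (8 libraries) had chow until the same age. The aged obese mice had eaten the diet for longer than the young obese mice, so age and time on the diet cannot be told apart in obese animals. Of the 12 mice bought for each group, 8 aged obese mice were alive at 51 weeks, so that group holds survivors. Because the cells were expanded on plastic, the values describe cultured progeny of the sorted cells and not the cells as they lay in the fat.

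The plasminogen activator system turns the circulating zymogen plasminogen into plasmin, a broad serine protease that dissolves fibrin and cleaves matrix and growth factor precursors. Urokinase, the product of Plau, acts mainly at the cell surface while bound to its receptor uPAR, the product of Plaur, and tissue-type activator, the product of Plat, acts mainly on fibrin. Serpins trap the activators: protease nexin-1 (Serpine2) also blocks thrombin, and PAI-2 (Serpinb2) inhibits urokinase and is largely kept inside the cell. Serpinf1 encodes PEDF, a serpin without protease inhibitor activity that is secreted by adipose cells and is known as an anti-angiogenic factor. In fat, the system is known for its part in matrix turnover.

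The 250 bases before the transcription start are shown for the receptor gene, which carried the larger of the called changes described below, and for Serpinb2, the member whose level varied most between mice. Both are from RefSeq on GRCm38.p6, which held a promoter for 4 of the 6 members (Plaur, Serpine2, Serpinb2 and Serpinf1, but not Plau or Plat), and capitals mark matches to the searched motifs. The Plaur window lies at chr7:24462233-24462482 on the plus strand and the Serpinb2 window at chr1:107511173-107511422 on the plus strand.
Plaur: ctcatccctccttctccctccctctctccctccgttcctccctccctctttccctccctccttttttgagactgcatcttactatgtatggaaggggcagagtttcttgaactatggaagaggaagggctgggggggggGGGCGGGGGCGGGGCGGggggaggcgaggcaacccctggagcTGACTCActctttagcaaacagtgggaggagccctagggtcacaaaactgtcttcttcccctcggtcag
Serpinb2: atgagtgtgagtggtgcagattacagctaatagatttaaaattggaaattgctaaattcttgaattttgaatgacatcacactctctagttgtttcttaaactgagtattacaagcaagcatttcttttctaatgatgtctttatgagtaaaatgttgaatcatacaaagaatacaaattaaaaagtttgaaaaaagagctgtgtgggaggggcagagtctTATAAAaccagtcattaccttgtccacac

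The motifs were searched on both strands. The Plaur window held an AP-1 motif, TGACTCA, from base -69 to -63 before the start, a motif found in 4.46% of 32817 promoter windows of the same length. It also held 3 GC boxes (GGGCGG), starting at -111, -105 and -100, of which the last 2 share a base, and 32.7% of all windows held such a box. The Serpinb2 window shown held no match to either motif and had a TATAAA match from -29 to -24, a motif present in 12.4% of windows. Serpinb2 has a further annotated start at chr1:107511510, from which the same TATAAA lies at -116 to -111. Serpine2 had 6 GC box matches, of which a neighbouring pair overlaps. Serpinf1 had a match to CAGACA, the letters bound by Smad proteins, from -38 to -33, as had 17.1% of windows. The cyclic AMP element TGACGTCA, found in 1.55% of windows, was in none of the windows of the 4 members. The matches describe letters, not bound sites.

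Counts assigned to genes ran between 30597765 and 47970233 per library. The highest value of any library was 0.029 CPM (counts scaled to the size of the library) for Ptprc, the pan-leukocyte gene, 0.0273 for Adgre1 (macrophages) and 0.0334 for Lrrn4 (mesothelium). Other genes of the same marker lists were expressed, with ranges over the libraries of 8.22 to 30.7 CPM for Csf1r and 54.3 to 254 CPM for Krt19 and highest values of 16.2 CPM for Tek (endothelium) and 16.4 CPM for Adipoq (adipocytes). The summed level of the list reached 36.8 CPM for leukocytes and 255 CPM for mesothelium. Of the genes behind the sort, Ly6a (Sca-1) stood at 176 CPM in aged obese mouse 10 and 362 CPM in aged obese mouse 12, and no other library of that group had less than 917 CPM. The same pair of mice had 0.193 and 0.732 CPM of Cd34. Young obese mice 1 and 2 differed in the other direction for Cd34 only, with 26.1 and 27.9 CPM, where the rest of their group had at most 2.79 CPM. Their Ly6a, at 549.5 and 689 CPM, was the lowest of the group, where the others had 718 to 811 CPM. Where leaving out either pair ended a call, the values without it are given.

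The 5 comparisons between groups, and the interaction of obesity with age, were tested with edgeR's quasi-likelihood test over 14438 genes, with Benjamini-Hochberg adjustment over all of them and a call at an adjusted p below 0.05. All 6 members passed the filter on low counts. Of the 6, 2 were called higher in aged obese than in young lean mice, Plau and Plaur, where 5.62% of all genes tested were called higher and 10.3% called in either direction. In aged obese against young obese mice 1 member, Plau, was called higher, beside 1.87% of all genes called higher and 3.07% called at all. None of the 6 was called by edgeR in young obese against young lean mice, where 8.83% of genes were called; 2 members (Plaur and Serpinb2) and 28.3% of genes had an unadjusted p below 0.05, and DESeq2 called 1 (Serpinb2), with 12.4% of all genes. None was called in aged obese against aged lean mice, with 0.222% of genes called; 2 members (Plau and Plaur) and 12.7% of genes had an unadjusted p below 0.05, and DESeq2 called 0, with 1.3% of all genes. None was called in aged lean against young lean mice, with 0.00% of genes called; 1 member (Plau) and 5.35% of genes had an unadjusted p below 0.05, and DESeq2 called 0, with 0.0554% of all genes. None was called for the interaction, with 0.00693% of genes called; 0 members and 8.0% of genes had an unadjusted p below 0.05, and DESeq2 called 0, with 0.0485% of all genes. These comparisons share groups, so their results are not independent of each other.

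**Figure D1:**
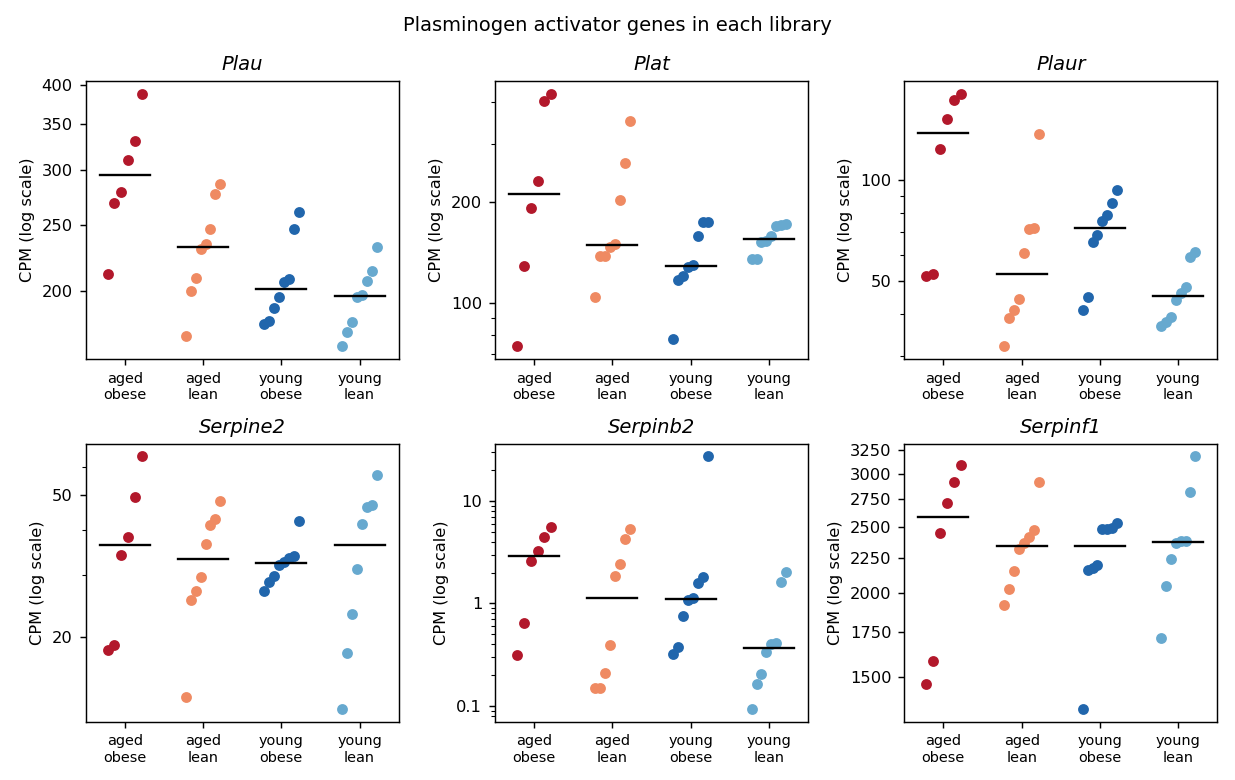
CPM of each of the 6 genes in each library on a log scale, by group; each point is 1 mouse and the bar is the group median. Plau, Plat, Plaur, Serpinb2 and Serpinf1 have their highest group median in aged obese mice. The medians of Serpine2 and Serpinf1 are similar in all 4 groups, and Serpinb2 has a single young obese library at 27.3 CPM.

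Plau, encoding urokinase (ENSMUSG00000021822), ranged over 212, 295 and 388 CPM (lowest, median and highest) in aged obese mice, 172, 232 and 286 CPM in aged lean mice, 179, 201 and 260.5 CPM in young obese mice and 166, 196 and 232 CPM in young lean mice. The groups overlapped, but 5 of 6 aged obese libraries lay above every young lean library and 5 of 6 above every young obese library. Aged obese mouse 15, at 212 CPM, was the library that did not. The means were 298 ± 60 CPM in aged obese mice and 196 ± 22 CPM in young lean mice (SD, n = 6 and 8).

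Plau was higher in aged obese than in young lean mice by 0.61 ± 0.12 on the log2 scale (SE; edgeR adjusted p = 0.00529), with 6 of 6 libraries above the young lean median. It was higher in aged obese than in young obese mice by 0.52 ± 0.12 (adjusted p = 0.0223), again with 6 of 6 above the young obese median. That second call ended without aged obese mouse 17 (adjusted p = 0.0547) and with only the 2 groups in the fit (adjusted p = 0.0589), and it held without aged obese mice 10 and 12 (0.40 ± 0.13, adjusted p = 0.0347) and without young obese mice 1 and 2 (0.63 ± 0.12, adjusted p = 0.00778). The remaining Plau differences did not pass: 0.36 ± 0.12 in aged obese against aged lean mice (adjusted p = 0.186), 0.24 ± 0.11 in aged lean against young lean mice (adjusted p = 0.85) and 0.09 ± 0.11 in young obese against young lean mice (adjusted p = 0.634). In young obese against young lean mice the value was -0.02 without young obese mice 1 and 2, the libraries with the most Plau of their group (260.5 and 246 CPM). The obesity effect on Plau was larger in aged than in young mice by 0.27 ± 0.16, which did not pass (adjusted p = 0.657).

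Some stromal and mural marker genes moved in the comparisons in which Plau was called. Of 9 stromal markers 1 was called in each of these comparisons, Pdgfrb, the receptor that marks stromal and mural cells, which was higher in aged obese than in young obese mice by 0.56 ± 0.15 (adjusted p = 0.0419) and than in young lean mice by 0.52 ± 0.15 (adjusted p = 0.0281). The summed stromal list was 27816 to 45936 CPM in aged obese mice, 14276 to 47175 CPM in young obese mice and 19986 to 34314 CPM in young lean mice. Most of this sum was Col1a1, at 12155 to 44931 CPM over the 30 libraries. Of 7 mural markers, 6 were tested, and Cspg4 was called higher in both comparisons, by 2.04 ± 0.47 and 1.5 ± 0.47, and Myh11 was called against young lean mice, by 1.20 ± 0.39 (adjusted p = 0.0467). The summed level of the mural list was 3118 to 7182 CPM (median 4571) in aged obese mice and 4214 to 5598 CPM (median 5116) in young obese mice. In young lean mice it was 2658 to 5443 CPM (median 3812). Most of the mural sum was Acta2, at 2565 to 6861 CPM over the 30 libraries, where Myh11 had at most 275 CPM and Cspg4 at most 105 CPM. The median of the sum was lower in aged obese than in young obese mice, unlike Cspg4. It mainly describes Acta2 and not the other markers of the list. Kcnj8, a member of the list, reached at most 0.237 CPM in any library. The marker calls themselves ended without 1 to 11 single libraries, among them aged obese mouse 15 in each case, the library with the most Cspg4 (105 CPM). Without aged obese mice 10 and 12, the calls against young lean mice ended for Cspg4 (1.5, adjusted p = 0.0632) and Myh11 (0.61, adjusted p = 0.305), and without young obese mice 1 and 2 that of Pdgfrb against young obese mice ended (0.54, adjusted p = 0.0608). The part of these cells in the result was not tested. In RNA from whole cultures, fewer cells of a type and less RNA per cell cannot be told apart.

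Plat, encoding tissue-type activator (ENSMUSG00000031538), spanned its widest range in aged obese mice. Its lowest, median and highest values were 73.9, 212 and 424 CPM in aged obese mice, 104, 149 and 352 CPM in aged lean mice, 77.7, 129 and 175 CPM in young obese mice and 135, 155 and 172 CPM in young lean mice. The highest library of a group had 5.74 times the Plat of the lowest in aged obese mice, 3.4 times in aged lean mice, 2.25 times in young obese mice and 1.28 times in young lean mice. Aged obese mice 10 and 12 (73.9 and 129 CPM) lay below every young lean library and the other 4 above every one.

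No Plat difference was called over all libraries. It was 0.84 ± 0.28 in aged obese against young obese mice (adjusted p = 0.0878), 0.64 ± 0.28 in aged obese against young lean mice (adjusted p = 0.133), 0.38 ± 0.28 in aged obese against aged lean mice (adjusted p = 0.625), 0.26 ± 0.26 in aged lean against young lean mice (adjusted p = 0.893) and -0.20 ± 0.26 in young obese against young lean mice (adjusted p = 0.642). Without aged obese mice 10 and 12, Plat was called higher in aged obese mice both against young obese mice (1.22 ± 0.25, adjusted p = 0.00537) and against young lean mice (1.02 ± 0.25, adjusted p = 0.0147), where 18.3% and 10.3% of all genes were called in these comparisons. Leaving out mouse 10 alone also gave both calls, at 1.04 (edgeR adjusted p = 0.0243) and 0.85 (adjusted p = 0.0388). There 4.77% and 7.91% of all genes were called. Mice 10 and 12 had the least Plat of their group, so leaving them out widens the difference. The calls without them are no tests of their own. Against young obese mice Plat was also called by DESeq2 (adjusted p = 0.0492) and by limma's voom with quality weights (adjusted p = 0.00906), which called 5.92% and 19.9% of all genes.

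The balance of the 2 activators was read as the log2 ratio of Plat to Plau within each library. It averaged -0.52 ± 1.14 in aged obese mice, -0.40 ± 0.51 in aged lean mice, -0.65 ± 0.32 in young obese mice and -0.33 ± 0.29 in young lean mice (SD, n = 6, 8, 8 and 8). Plat counts stood at 0.238 times the Plau counts in aged obese mouse 10 and 0.332 times in mouse 12, and at 1.90 times in mouse 15 and 1.28 times in mouse 17 of the same group. The young obese libraries ranged over 0.411 to 0.871 and the young lean libraries over 0.58 to 1.04. Young obese and young lean mice differed by -0.32 (exact two-sided permutation test, p = 0.0477, adjusted over the 5 comparisons 0.239), so the difference did not pass the correction. The other 4 comparisons differed by -0.19 to 0.13, with exact permutation p-values of 0.657 to 0.797.

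**Figure D2:**
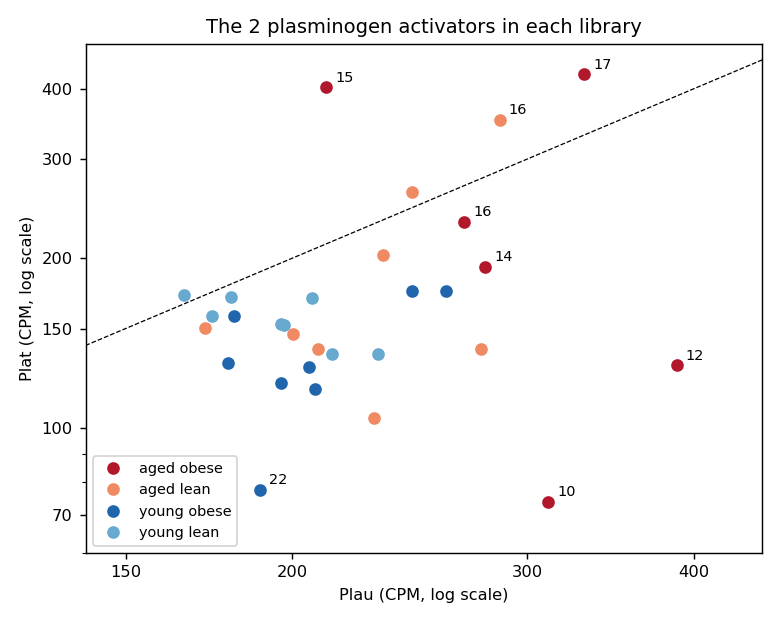
Plau (x axis) against Plat (y axis) in CPM, both on log scales, with 1 point per library coloured by group and the mouse number beside the aged obese libraries and 2 others named in the text; the dashed line marks equal values. Aged obese mice 10 and 12 lie far below the line with high Plau, and aged obese mice 15 and 17 above it with over 400 CPM of Plat.

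Plaur, the urokinase receptor gene (ENSMUSG00000046223), had lowest, median and highest values of 51.7, 138 and 181 CPM in aged obese mice, 32, 52.5 and 137 CPM in aged lean mice, 41.1, 72.2 and 93.3 CPM in young obese mice and 36.7, 45.2 and 61.1 CPM in young lean mice. The aged obese libraries fell apart into 4 at 124 to 181 CPM (mice 10, 12, 15 and 17), above every young library, and mice 14 and 16 at 52.4 and 51.7 CPM, inside the young lean range. Mice 10 and 12 had the highest Plaur of all 30 libraries and, as given above, low Plat.

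Plaur was higher in aged obese mice (122 ± 57.8 CPM, n = 6) than in young lean mice (46.5 ± 9.32 CPM, n = 8) by 1.39 ± 0.29 on the log2 scale (edgeR adjusted p = 0.00668), with 6 of 6 libraries above the young lean median. The call held without aged obese mice 10 and 12 (1.04 ± 0.31, adjusted p = 0.0319) and without each single library in turn (adjusted p up to 0.0245), and ended with voom quality weights (0.81 ± 0.28, adjusted p = 0.0781). Pdgfrb, Cspg4 and Myh11 were higher in the same comparison, as above, and their part in it was not tested.

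Against aged lean mice, Plaur was higher in aged obese mice by 0.98 ± 0.29, which did not pass (adjusted p = 0.131). Aged lean mouse 16 had 137 CPM, where the next aged lean library had 72.3 CPM. Without it the difference was called (1.25 ± 0.26, edgeR adjusted p = 0.0112), with 3.02% of all genes, against 0.222% over all libraries. It was also called without aged obese mouse 16 (1.14 ± 0.28, edgeR adjusted p = 0.0316), with 2.19% of all genes. These mice had the highest Plaur of the aged lean and the lowest of the aged obese libraries. Leaving out either widens the difference, so these calls are no tests of their own. Young obese mice differed from young lean mice by 0.57 ± 0.27 (adjusted p = 0.161), with 6 of 8 young obese libraries above every young lean library and mice 1 and 2 (44.9 and 41.1 CPM) within the young lean range. This difference was called with only the 2 groups in the fit (0.57 ± 0.16, adjusted p = 0.0347) and with voom quality weights (0.72 ± 0.17, adjusted p = 0.0025), which called 12.1% and 29.5% of all genes, but not without mice 1 and 2 in the fit of all groups (0.74 ± 0.28, adjusted p = 0.118). The age differences were 0.82 ± 0.29 in obese mice (adjusted p = 0.103, and 0.0314 without aged obese mouse 16) and 0.42 ± 0.27 in lean mice (adjusted p = 0.85). Leaving out aged obese mouse 16, the lowest of its group for Plaur, raised the share of all genes called for age in obese mice from 3.07% to 7.06%. The obesity effect differed between ages by 0.41 ± 0.39 (adjusted p = 0.788).

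The log2 ratio of receptor to ligand counts, Plaur to Plau, averaged -1.44 ± 0.81 in aged obese mice, -2.03 ± 0.52 in aged lean mice, -1.63 ± 0.60 in young obese mice and -2.09 ± 0.30 in young lean mice (SD). On the linear scale the medians were 0.409, 0.239, 0.395 and 0.232 in the same order of groups. The obese groups were higher than the lean groups of their age by 0.59 in aged mice (exact permutation p = 0.122, adjusted 0.203) and by 0.46 in young mice (exact permutation p = 0.0724, adjusted 0.181), and neither passed. Without young obese mice 1 and 2, whose ratios of 0.172 and 0.167 were the lowest of their group, the difference in young mice was 0.77 and passed (exact permutation test, adjusted p = 0.00333). Leaving out the lowest libraries of the higher group widens the difference, so this p-value is no test of its own. Aged obese and young lean mice differed by 0.65 (exact permutation p = 0.0573, adjusted 0.181).

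Among the inhibitors, Serpine2 (ENSMUSG00000026249) had nearly the same median in every group, with lowest, median and highest values of 18.4, 36.2 and 64.3 CPM in aged obese mice, 13.6, 33.1 and 48.2 CPM in aged lean mice, 26.9, 32.3 and 42.5 CPM in young obese mice and 12.6, 36.4 and 57.2 CPM in young lean mice. The groups overlapped throughout and its log2 differences ran from -0.09 to 0.20 over the 5 comparisons, with SEs of 0.27 to 0.30 and adjusted p-values of 0.753 to 0.985. Its spread differed between groups: the young lean libraries spanned 4.55-fold and the young obese libraries 1.58-fold. Aged obese mice 10 and 12 had the lowest Serpine2 of their group, at 19.1 and 18.4 CPM.

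Serpinb2 (ENSMUSG00000062345) was the least abundant member and the most uneven one. It had lowest, median and highest values of 0.316, 2.93 and 5.57 CPM in aged obese mice, 0.149, 1.1 and 5.37 CPM in aged lean mice, 0.322, 1.11 and 27.3 CPM in young obese mice and 0.0931, 0.37 and 2.02 CPM in young lean mice. The lowest value came from 3 counts in young lean mouse 27 and the highest from 1058 counts in young obese mouse 22, 14.9 times the next young obese library. Young obese mouse 22 also had the lowest Serpinf1 and the lowest Plat of its group.

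The Serpinb2 difference between young obese and young lean mice was 2.69 ± 0.93 on the log2 scale and did not pass (adjusted p = 0.0639), although DESeq2 called it (2.73 ± 0.86, adjusted p = 0.0227). It rested on mouse 22: without that library it was 0.60 (adjusted p = 0.647). Aged obese and young lean mice differed by 2.07 ± 0.96 (adjusted p = 0.156), with 4 of 6 aged obese libraries above every young lean library. The other differences were 1.46 ± 0.92 in aged lean against young lean mice (adjusted p = 0.85), 0.61 ± 0.93 in aged obese against aged lean mice (adjusted p = 0.864) and -0.62 ± 0.93 in aged obese against young obese mice (adjusted p = 0.76), the last of which was 1.48 without mouse 22.

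Serpinf1, encoding PEDF (ENSMUSG00000000753), was the most abundant member. Its lowest, median and highest values were 1465, 2584 and 3085 CPM in aged obese mice, 1919, 2346 and 2912 CPM in aged lean mice, 1347, 2342 and 2538 CPM in young obese mice and 1717, 2376 and 3180.2 CPM in young lean mice. Group means lay between 2236 ± 393 CPM in young obese mice and 2393 ± 448 CPM in young lean mice, and the log2 differences ran from -0.10 to 0.08 over the 5 comparisons with SEs of 0.15 to 0.16 (adjusted p of 0.699 to 0.981). The aged obese libraries were split, with 1465 and 1588 CPM in mice 10 and 12 against 2452 to 3085 CPM in the other 4.

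**Figure D3:**
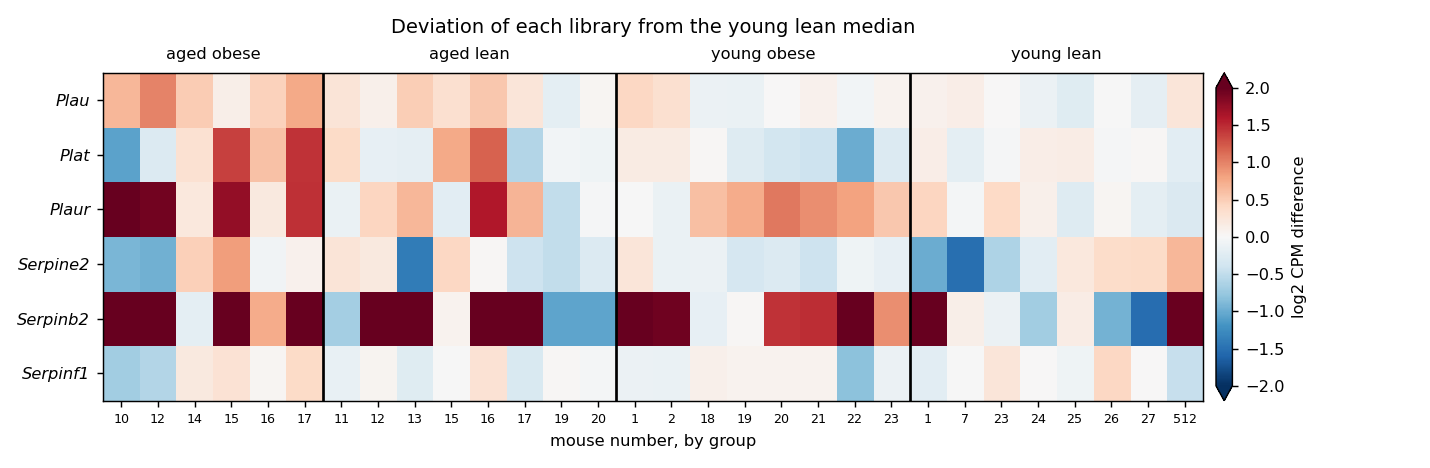
Log2 CPM of each gene (rows) in each library (columns, by group and mouse number) minus the young lean median of that gene; red is higher, blue lower, and the colour scale ends at 2 in either direction. Aged obese mice 10 and 12 combine high Plau, Plaur and Serpinb2 with low Plat, Serpine2 and Serpinf1. Aged obese mice 15 and 17 are high in Plat, Plaur and Serpinb2, and mouse 17 also in Plau.

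Per kilobase of the longest annotated transcript, the median level over the 30 libraries was 1298 CPM per kilobase for Serpinf1, 89.9 for Plau, 37.8 for Plat, 29.8 for Plaur, 9.72 for Serpine2 and 0.463 for Serpinb2. Serpinf1 lay above all others in every library, while the ranges over libraries of the other neighbours in this order overlapped. The median log2 difference of the 6 members was 0.62 in aged obese against young lean mice, 0.36 in aged obese against young obese mice, 0.37 in aged obese against aged lean mice, 0.25 in aged lean against young lean mice and 0.0 in young obese against young lean mice, where the medians of all tested genes were -0.01, 0.01, 0.01, -0.02 and -0.02.

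**Figure D4:**
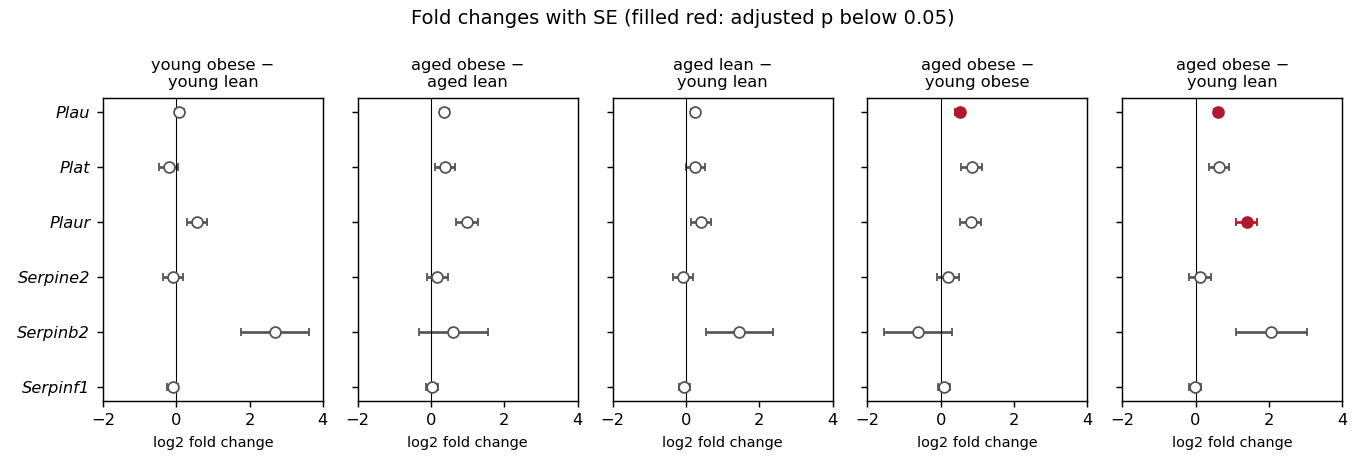
Log2 fold changes of the 6 genes in the 5 comparisons, with the SE as the bar; filled red points have an edgeR adjusted p below 0.05. The filled points are Plau in aged obese against young obese mice and Plau and Plaur in aged obese against young lean mice, and Serpinb2 has the widest bars.

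Partners of the system were followed in 7 lists of 68 genes in all, of which 67 were in the table and 47 were tested. Plasminogen itself (Plg) had 1 count in all 30 libraries together. In young obese against young lean mice 3 partners were higher and 5 lower, with 3.46% of all genes called higher and 5.37% lower. In aged obese against young obese mice 5 were higher and none lower, with 1.87% of all genes called higher and 3.07% called at all. In aged obese against young lean mice 3 were higher and none lower, with 5.62% of all genes called higher and 10.3% called at all. EdgeR called no partner in the other comparisons. There it called 0.222% of all genes (obesity in aged mice), 0.00% (age in lean mice) and 0.00693% (interaction).

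Of the further inhibitors, 4 genes were tested in this list, and their differences did not pass in any of the 5 comparisons. A2m, the plasma protease trap alpha-2-macroglobulin, had lowest, median and highest values of 2.61, 5.13 and 42.9 CPM in young obese and 0.319, 2.84 and 5.66 CPM in young lean mice, a log2 difference of 2.24 ± 0.80 (SE; edgeR adjusted p = 0.0721), with 7 of 8 young obese libraries above the young lean median. Serpinb6a, an intracellular serpin, averaged 658 ± 33.8 CPM in young obese and 813 ± 163 CPM in young lean mice (SD, n = 8 each; log2 difference -0.30 ± 0.11, adjusted p = 0.0769), with all 8 young obese libraries below the young lean median. Serpinf2, encoding the plasmin inhibitor alpha-2-antiplasmin, reached at most 1.17 CPM in any library.

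Of the partner calls, 4 held without each single library: S100a10 and Plgrkt in young obese against young lean mice, and Itgb1 and Tgfb1 in aged obese against young lean mice. Of these, Tgfb1 also held under the 8 other alternatives run. The share of all called genes that hold in these ways was not counted. Itgb1 ended with voom quality weights and with only the 2 groups in the fit. S100a10 and Plgrkt ended with the offset for length and GC content and without young obese mice 1 and 2 (-0.53, adjusted p = 0.0649, and -0.33, adjusted p = 0.0629). Without the same pair of mice, the calls in young obese against young lean mice also ended for Itgav (0.24, adjusted p = 0.101), Itgb1 (0.22, adjusted p = 0.112), Pnpla2 (-0.25, adjusted p = 0.114) and Rpsa (-0.38, adjusted p = 0.0933), as did that of S100a10 in aged obese against young obese mice (0.44, adjusted p = 0.104). Itgav, Itgb1, Pnpla2 and Rpsa also ended there with the offset and with no filter on low counts. Lrp2 ended without young lean mouse 26 (adjusted p = 0.052) and with the offset. Each of the other partner calls named here ended without any of 5 to 12 single libraries and under 1 to 4 of the other alternatives.

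Among the plasminogen receptors, 4 of 8 genes were tested. S100a10, which with annexin A2 holds plasminogen and Plat at the cell surface, was lower in young obese than in young lean mice (142 against 222 CPM, -0.64 ± 0.15, adjusted p = 0.0162, all 8 libraries below the young lean median) and higher in aged obese than in young obese mice (208 against 142 CPM, 0.55 ± 0.16, adjusted p 0.05 when rounded, and below 0.05). Plgrkt, a membrane receptor for plasminogen, fell by 0.38 ± 0.09 in young obese relative to young lean mice (adjusted p = 0.0168). Of the binding and clearance partners, 11 of 12 were tested. Lrp2, the endocytic receptor megalin, averaged 9.13 CPM in young obese and 3.51 CPM in young lean mice (1.38 ± 0.34, adjusted p = 0.0201). The integrin subunits that uPAR can join moved less: Itgb1 was higher by 0.26 ± 0.08 (edgeR adjusted p = 0.0347) and Itgav by 0.26 ± 0.08 (adjusted p = 0.0366) in young obese than in young lean mice. Itgb1 was also higher by 0.34 ± 0.08 in aged obese than in young lean mice (adjusted p = 0.0124). Itgb3, the partner of Itgav, was higher in aged obese than in young obese mice by 0.85 ± 0.22 (adjusted p = 0.0315).

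Of 8 tested growth factors and proteases that the activators or plasmin can activate, Tgfb1, the latent cytokine that plasmin can release, was called. It had lowest, median and highest values of 34.6, 47.4 and 204 CPM in aged obese mice, 23.4, 29.8 and 199.9 CPM in aged lean mice, 24.4, 29.3 and 45.8 CPM in young obese mice and 19.6, 23.2 and 30.4 CPM in young lean mice. The highest aged lean value was that of mouse 16. Tgfb1 was higher in aged obese than in young lean mice by 1.98 ± 0.44 (edgeR adjusted p = 0.00857) and than in young obese mice by 1.58 ± 0.43 (adjusted p = 0.0419). Of 7 tested clotting and contact factors, Procr, the receptor of protein C, was higher in aged obese than in young obese mice by 0.81 ± 0.21 (adjusted p = 0.0386). Of 5 tested receptors and partners of PEDF, Pnpla2 (-0.29 ± 0.09, adjusted p = 0.0345), the adipose triglyceride lipase, and Rpsa (-0.40 ± 0.12, adjusted p = 0.034), the laminin receptor and ribosomal protein, were lower in young obese than in young lean mice. Of 8 other tested serpins, Serpinb1a, an inhibitor of neutrophil proteases, was lower in young obese than in young lean mice (-0.87 ± 0.28, adjusted p = 0.0455) and higher in aged obese than in young obese mice (1.19 ± 0.29, adjusted p = 0.0285). Serpinb8, an intracellular serpin, was higher in aged obese than in young lean mice (medians of 1.63 against 0.534 CPM, 1.74 ± 0.57, adjusted p = 0.0468).

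The genes whose log2 CPM followed each member most closely over the 30 libraries were sought among 11494 genes, by Pearson's r and as a description, since libraries of a group share its condition. For Plau these were Dusp6 (r = 0.83), Ddx24 (0.78) and Nr4a2 (0.77), and for Plat Gadd45b (0.91), Hspa2 (0.91) and Gramd3 (0.90). Plaur was followed most closely by Zpr1 (0.93), Tnfrsf12a (0.92) and Dlst (0.92). For Serpine2 they were Gpx3, Fbln7 and Pdgfd (0.80 each), for Serpinb2 Gpd2 (0.89), Gsr (0.87) and Zwint (0.86), and for Serpinf1 Igfbp7 (0.91), Emc10 (0.90) and Derl1 (0.89). After each group's mean was subtracted, the closest gene stayed Gpx3 for Serpine2 (0.84) and Gpd2 for Serpinb2 (0.87), and became Apold1 for Plau (0.75), Serinc3 for Plat (0.93), Dlst for Plaur (0.91) and Tex264 for Serpinf1 (0.92).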

How the data were processed

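RNA-seq counts per gene were analysed from 30 libraries, 1 per mouse. The deposited values are whole-number read counts, made by the authors with STAR and HTSeq 0.7.0, per the submitters' processing notes, which also name DESeq2 1.12.4; the genome build, the annotation and the strand setting are not given in the sources used here. Counts of antisense and overlapping genes may therefore be mixed. The 5 lines that name no gene were left out of library sizes; reads in no gene came to 3.94% to 8.75% and ambiguous reads to 2.69% to 3.41%. The 38561 identifiers were paired with symbols through the reference tables for 36639 of them.

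Counts were scaled by trimmed mean of M-values, filtered by expression within groups (14438 genes kept) and fitted with 1 term per group over all 30 libraries in edgeR 4.0.16 (R 4.3.3); p-values were adjusted by Benjamini-Hochberg over all genes tested and called below 0.05. Standard errors are the log2 fold change divided by the square root of its F. CPM values use the same scaling, and group values are means ± SD. Ratios of 2 genes were taken as log2 of counts with a pseudocount of 0.5 and compared by exact two-sided permutation tests, adjusted over 5 comparisons. Alternatives were DESeq2 1.42.0, DESeq2 size factors, other filters, limma 3.58.1 voom with quality weights, an offset for length and GC content, fits of only the 2 groups, the mouse number as a block, and leaving out single libraries or pairs of libraries that stood apart. P-values measure the spread between libraries, each from the cultured cells of another mouse. The mice were housed 4 to 5 per cage, and the cage of each mouse is not given in the sources used here. Differences between mice, cages and cultures therefore cannot be told apart.

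The named genes were the 6 members, the called genes of 7 partner lists, and for each member the 3 genes with the highest correlation; the members and lists were chosen with earlier results of these data known. Some genes of the partner and marker lists are not reported here. Methylation data mentioned in the study's design were not used here.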

Additional observations from a re-analysis of the deposited data

Results flagged for a closer look

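Of 32 tests for a library apart from the others of its group (6 members and 2 ratios in 4 groups), 4 found one, where chance gives about 1 in 20. Plaur stood at 137 CPM in aged lean mouse 16, with 72.3 CPM in the next library of its group. Serpine2 was at 42.5 CPM in young obese mouse 1, with 33.9 CPM in the next library. Serpinb2 was at 27.3 CPM in young obese mouse 22, with 1.83 CPM in the next library. Serpinf1 was at 1347 CPM in the same mouse, with 2159 CPM in the next lowest library.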

How the results depend on the processing

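Both calls of aged obese against young lean mice, Plau and Plaur, were higher under every alternative run; Plau stayed past the threshold in all of them and Plaur in all but voom with quality weights, which left 1 member called (Plau). For aged obese against young obese mice, where Plau was called, DESeq2 and voom with quality weights called 2 members (Plau and Plat). Leaving out aged obese mice 10 and 12, which had the least Plat of their group, called the same 2. The calls over all genes came to 5.92%, 19.9% and 18.3% in these 3 settings, against 3.07% in the edgeR fit of all libraries. The fit of only the 2 groups called 0 members and 1.31% of all genes. For young obese against young lean mice, where none was called, DESeq2 called 1 (Serpinb2), and voom with quality weights and the fit of only the 2 groups called 1 (Plaur), while these called 12.4%, 29.5% and 12.1% of all genes, against 8.83%. Leaving out each library in turn gave 0 to 1 members called in young obese against young lean mice (Serpinb2, without either of 2 young lean libraries or without young obese mouse 18), 0 to 1 in aged obese against aged lean mice and 0 to 2 in aged obese against young obese mice. In the same order, these fits called 1.39% to 15.3%, 0.0619% to 3.02% and 0.296% to 7.06% of all genes.

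Mouse numbers recur between groups, and what they mark beyond the animal is not given in the sources used here. Deviations of same-numbered libraries from their group means correlated at 0.0823 and 0.215 in young mice and at 0.199, 0.39, -0.0987 and -0.517 in aged mice. Libraries with different numbers were not compared in this way, so these values cannot tell whether the numbers pair samples. The main fit did not use them as pairs. A fit with the number as a replicate block, over the libraries that share one, called 0 members and 0.00% of all genes at either age. In it Plaur was -0.15 and Serpine2 0.85 in young obese against young lean mice. Serpine2 was -0.08 in aged obese against aged lean mice.

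The log2 ratio of Plaur to Plau in young obese against young lean mice, which did not pass over all libraries, was 0.77 and passed without young obese mice 1 and 2. These mice had the lowest ratios of their group, so leaving them out widens the difference and is no test of its own. The sign changes below concern differences that did not pass over all libraries. The cause of these changes was not tested. The log2 ratio of Plat to Plau was 0.54 in aged obese against aged lean mice and 0.46 in aged obese against young lean mice without aged obese mice 10 and 12. The log2 ratio of Plaur to Plau in aged obese against young obese mice was -0.12 without young obese mice 1 and 2 and -0.04 without aged obese mice 10 and 12. Without young obese mice 1 and 2, Plau was -0.02 in young obese against young lean mice. With voom quality weights, Plat was -0.03 in aged lean against young lean mice, Serpinb2 was 0.56 in aged obese against young obese mice and 0.09 for the interaction, and Serpinf1 was 0.01 in young obese against young lean mice. With an offset for length and GC content, Serpinf1 was 0.07 in young obese against young lean mice, 0.03 in aged lean against young lean mice and -0.01 for the interaction. In aged obese against young lean mice Serpinf1, at -0.01, became 0.01 with DESeq2 and with its size factors, 0.02 with no filter, 0.07 with voom, 0.09 with the offset, 0.0 with only the 2 groups and 0.23 without aged obese mice 10 and 12.

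Leaving out each library in turn, the log2 ratio of Plat to Plau ran from -0.41 to 0.19 in aged obese against aged lean mice, -0.17 to 0.03 in aged lean against young lean mice, -0.16 to 0.44 in aged obese against young obese mice and -0.48 to 0.12 in aged obese against young lean mice. That of Plaur to Plau ran from -0.08 to 0.15 in aged lean against young lean mice and 0.0 to 0.39 in aged obese against young obese mice. Serpine2 ran from -0.21 to 0.05 in young obese against young lean mice, -0.05 to 0.31 in aged obese against aged lean mice, -0.18 to 0.09 in aged lean against young lean mice, -0.02 to 0.34 in aged obese against young obese mice and -0.12 to 0.26 in aged obese against young lean mice. Serpinf1 ran from -0.06 to 0.14 in aged obese against aged lean mice, -0.09 to 0.03 in aged lean against young lean mice, -0.01 to 0.2 in aged obese against young obese mice and -0.1 to 0.11 in aged obese against young lean mice. Serpinb2 ran from -0.94 to 1.48 in aged obese against young obese mice and -2.59 to 0.01 for the interaction. Depth limits only Serpinb2, which had 3 to 1058 counts per library. The alternatives for the called partner and marker genes were chosen after seeing the data, and no call of these genes changed sign under them. Of their 21 calls, 19 ended under 1 to 5 of the 8 or 9 alternatives other than leaving out a single library; the calls of Tgfb1 in aged obese against young lean mice and of Cspg4 in aged obese against young obese mice did not.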
